A study of Mus musculus with 6 samples.

Results

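The clustered histone genes encode the linker histone H1 and the 4 core histones H2A, H2B, H3 and H4, and were taken as every protein-coding gene whose symbol starts with Hist1h, Hist2h, Hist3h or Hist4h. The table of gene expression held 67 such genes among 53023 genes, with 6 H1, 18 H2A, 18 H2B, 12 H3 and 13 H4 genes. In GRCm38, 54 of them lay on chromosome 13 (Hist1), 10 on chromosome 3 (Hist2), 2 on chromosome 11 (Hist3) and 1 on chromosome 6 (Hist4). A further 3 genes with such a symbol were annotated as pseudogenes and were left out.

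Most of these genes are replication-dependent. They are transcribed as cells copy their DNA, and their mRNAs usually end just past a short stem-loop in place of a poly(A) tail. The stem-loop is bound by SLBP, which guides 3′ end cutting and translation, and the U7 small nuclear ribonucleoprotein takes part in the cut. Growing oocytes and early embryos also hold histone mRNAs that carry poly(A) tails, and they use replication-independent variants such as H3.3 and the oocyte linker histone H1foo.

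RNA-seq was performed on ICR mouse embryos at the 2-cell stage, collected at 28 hours post insemination (hpi). Fertilized oocytes received mRNA at 100 ng/µl in the cytoplasm between 1.5 and 3 hpi. The mRNA encoded tagged wild-type PIASy, a SUMO ligase, in PIASy-WT embryos, and PIASy with the RING finger mutation C335F, which removes the ligase function, in PIASy-Mut embryos. Injected embryos were chosen by fluorescence at 9 hpi, and non-injection embryos received no mRNA, so the injection itself was shared by both PIASy groups but not by that control. Each group had 2 libraries, each from a pool of 5 embryos without the zona pellucida, and their cDNA was made by SMART-Seq v4, which primes on poly(A) tails. An mRNA without a tail is thus captured poorly or not at all, and a low value here is not a low level of the RNA in the embryo.

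The libraries held 871663 to 1363928 fragments on genes, and 3 fragments corresponded to 2.20 to 3.44 CPM (counts scaled to library depth). The injected gene, Pias4, was measured at 2.98 and 3.59 FPKM (fragments scaled to gene length and library depth) in non-injection embryos, 862 and 611 with PIASy-Mut, and 610 and 579 with PIASy-WT. Markers of the 2-cell embryo were detected for 8 of 8 genes and summed to 948 to 2282 CPM. Of 10 cumulus cell markers 7 were above 0 in some library, with sums of 12.2 to 23.3 CPM, and 6 sperm or testis markers summed to 1.94 to 4.40 CPM.

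The sequence at the 3′ end of the annotated transcripts was read first, since it bears on which of these RNAs a poly(A)-primed library can hold. In GENCODE M21 transcripts (GRCm38), 44 of 67 genes (65.7%) had a stem-loop with paired arms of 6 bases around the loop TTTN, against 0.341% of 20836 protein-coding genes. The arm differed by class. Every H1, H2A, H2B and H3 stem-loop found had the arm GGCTCT, whereas the 11 H4 genes with a stem-loop had GGCCCT or GGTCCT. The following 5 sites, from genes with 18 to 143 fragments, were chosen to show both kinds of arm, and are written 5′ to 3′ on the transcript strand, with the stem-loop in capitals.

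Hist1h4i (H4), chr13:22040966-22040981, minus strand: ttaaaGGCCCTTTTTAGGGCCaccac

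Hist1h4c (H4), chr13:23698089-23698104, minus strand: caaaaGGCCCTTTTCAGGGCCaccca

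Hist1h4d (H4), chr13:23581950-23581965, plus strand: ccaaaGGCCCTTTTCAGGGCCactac

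Hist1h1c (H1), chr13:23739512-23739527, plus strand: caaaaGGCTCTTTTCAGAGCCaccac

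Hist1h2bk (H2B), chr13:22036300-22036315, plus strand: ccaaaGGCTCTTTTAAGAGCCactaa

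These stem-loops lay in the 3′ UTR and started 25 to 37 bases after the stop codon. The H4 sites differed from the H1 and H2B sites in the middle of both arms. The annotated transcript went on for 454 bases past the stem-loop in Hist1h4c, 330 in Hist1h4i, 770 in Hist1h4d and 840 in Hist1h1c, but for only 30 bases in Hist1h2bk. A polyadenylation signal, AATAAA or ATTAAA on the transcript strand, stood in the last 50 bases of a transcript of 17 members (25.4%), against 79.9% of all protein-coding genes. Hist1h4i was among the 17, and Hist1h4c was not.

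The 67 genes fell into 4 kinds of annotated 3′ end. In 22 genes the transcript ran more than 100 bases past the stem-loop, and these held 383 of the 668 fragments (57.3%). In another 22 it ended within 100 bases of it, and these held 70 fragments (10.5%). No perfect stem-loop was found in 12 genes with some sequence outside the coding part, which held 171 fragments (25.6%), and 11 gene models held the coding sequence alone, with 44 fragments (6.59%). The longer models also offer more sequence to be counted. Per length, the summed FPKM of the long ends was 42.2 to 75.6 in the 6 libraries and that of the short ends 14.8 to 43.6, with the long ends higher in each library. Hist1h4c alone held 143 of the 383 fragments of the long ends. In PIASy-WT library 2 it gave 37.1 of their 58.6 FPKM, where the short ends had 23.3, so there the order rested on that gene. The median gene was near 0 in both, at 0.472 and 0.391 FPKM.

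The 668 fragments were the whole signal of the 67 genes over 6 libraries, 80 to 136 in each. Of the 67 genes, 20 (29.9%) were at 0 in every library, against 20.3% of 21963 protein-coding genes. A further 31 had no more than 3 fragments in any library, and 16 had more than 3 in at least 1 library. A count of 0 allows up to 3 fragments at this depth, so absence of these RNAs cannot be read from it. By locus, 13 of 54 Hist1 and 7 of 10 Hist2 genes were at 0 throughout. The testis linker histone gene Hist1h1t was at 0 in all 6 libraries, and Hist3h2a had 0 and 1 fragment in non-injection embryos, 1 and 2 with PIASy-Mut, and 0 in both libraries of PIASy-WT.

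Copies of these genes share sequence, and only uniquely mapped reads were counted. Coding sequences of the 13 H4 genes were all 312 bases long and came in 12 different sequences, with a median identity of 93.9% over pairs. The median identity was 97.2% among the 12 H3 genes. Of the 50-base stretches in a member's transcripts, a median of 54.1% also occurred in another gene. The 5 members without any stretch of their own were Hist2h2aa1, Hist2h2aa2, Hist2h3b, Hist2h3c1 and Hist2h2bb, all on chromosome 3 and all at 0 in every library.

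Fragments were found mostly in members with sequence of their own. The 12 members that shared at least 90% of their stretches held 9 fragments, and 9 of them were at 0 throughout. The 22 members between 50% and 90% held 71 fragments, with 8 at 0. The 33 members below 50% held 588 fragments (88.0%), with 3 at 0. Among these 3 was Hist1h1t, which shared none. The genes with a long 3′ end also shared less (median 23.3% of stretches) than those ending near the stem-loop (63.1%), and the separate parts of sharing, length and 3′ end were not tested.

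**Figure D1:**
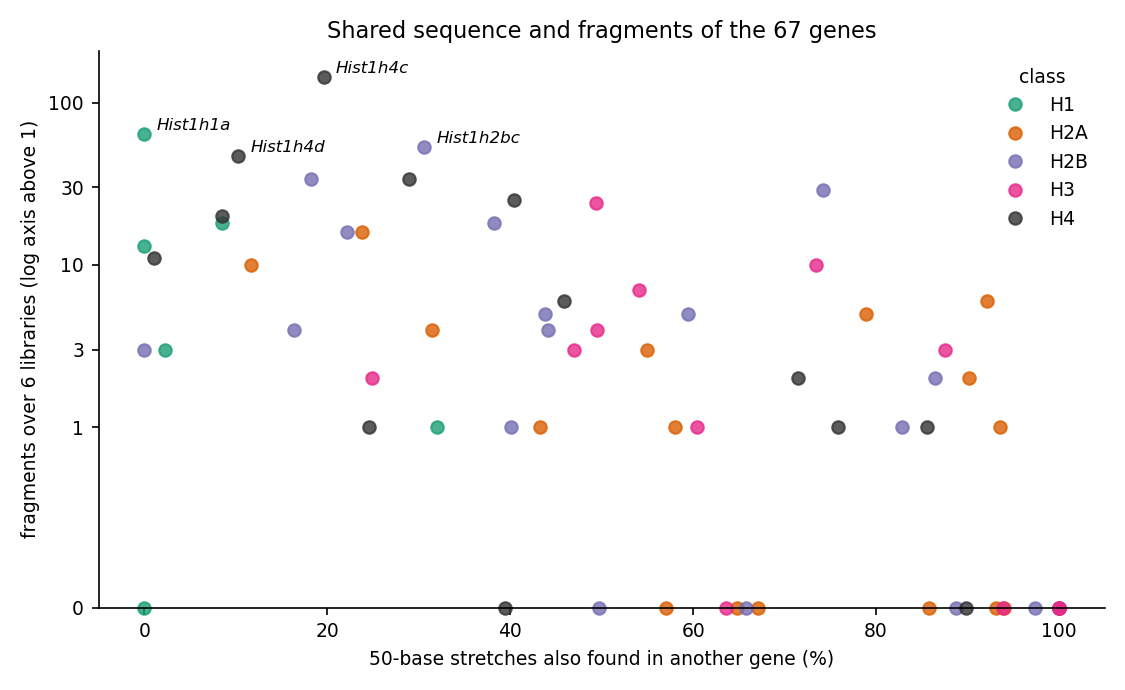
Each point is 1 of the 67 clustered histone genes, coloured by class. The horizontal axis gives the percent of its 50-base stretches that also occur in another gene, and the vertical axis gives its fragments summed over 6 libraries, on a log axis above 1. The 4 genes above 40 fragments all lie below 50% sharing, and the genes at 100% are all at 0.

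Exons of 24 members also overlapped exons of another gene. For 14 of them the only partner was a miRNA model on the opposite strand of an H2A gene. The same 5 Hist2 genes without a stretch of their own lay wholly within exons of another gene. Whether the counting used strand is not given in the sources used here, and the SMART-Seq and Nextera XT kits do not mark strand, so their zeros cannot be told from reads left unassigned. The antisense gene Gm20628, which covers Hist2h3b and Hist2h2bb, had 16 and 8 fragments in non-injection embryos, 9 and 7 with PIASy-Mut, and 2 and 10 with PIASy-WT.

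The H4 genes held the largest share of the signal, 291 fragments or 43.6%, followed by H2B with 175 (26.2%), H1 with 99 (14.8%), H3 with 54 (8.08%) and H2A with 49 (7.34%). Hist1h4c alone held 21.4%. The classes also differed in shared sequence, at a median of 39.5%, 46.9%, 1.12%, 62.0% and 73.0% of stretches in the same order. The part of sharing in this ranking was not tested. All members together summed to 88.0 and 84.0 CPM in non-injection embryos, 77.5 and 140 with PIASy-Mut, and 103 and 100 with PIASy-WT. Both PIASy-WT libraries lay above both non-injection libraries, and PIASy-Mut spanned the range of both. The ratio of pooled counts of PIASy-WT to non-injection was 1.18, with a 95% exact interval of 0.977 to 1.42, and without Hist1h4c it was 1.11 (0.896 to 1.37), with overlapping libraries. These intervals cover counting error only. Fewer cells with an RNA and less of it per cell cannot be told apart in pooled embryos.

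Libraries of PIASy-WT and PIASy-Mut overlapped in every class. PIASy-WT lay above non-injection without overlap in H2A, H3 and H4, and PIASy-Mut did in H1, H2A and H3. For H4 this rested on Hist1h4c: without it, the pooled ratio of PIASy-WT to non-injection was 0.875 (0.576 to 1.32), and both PIASy-WT libraries lay below both non-injection libraries. That lower side rested in turn on Hist1h4i, which had 2 of the 46 PIASy-WT fragments left and 19 of the 53 non-injection ones. H4 genes summed to 38.1 and 41.6 CPM in non-injection embryos, 31.0 and 56.2 with PIASy-Mut, and 43.0 and 47.0 with PIASy-WT. H2B genes summed to 24.6 ± 3.55 CPM in non-injection embryos, 29.3 ± 15.4 with PIASy-Mut and 23.8 ± 1.61 with PIASy-WT (mean ± SD, n = 2). H1 genes gave 11.1 ± 1.94, 15.2 ± 0.415 and 16.6 ± 7.47 CPM in the same order. For H2A, both PIASy-WT libraries (6.04 and 11.3 CPM) and both PIASy-Mut libraries (5.81 and 12.6 CPM) lay above the non-injection libraries (4.40 and 4.42 CPM), on 49 fragments in all. For H3 the corresponding values were 6.79 and 7.83, 6.78 and 16.1, and 5.87 and 6.19 CPM. With 2 libraries against 2, an exact two-sided permutation test cannot give a P below 0.333, and every counting interval of a class ratio included 1. For all members together, the ratio of PIASy-Mut to non-injection was 1.23 (1.01 to 1.50), and 1.32 (1.06 to 1.64) without Hist1h4c, although the libraries overlapped between these groups.

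**Figure D2:**
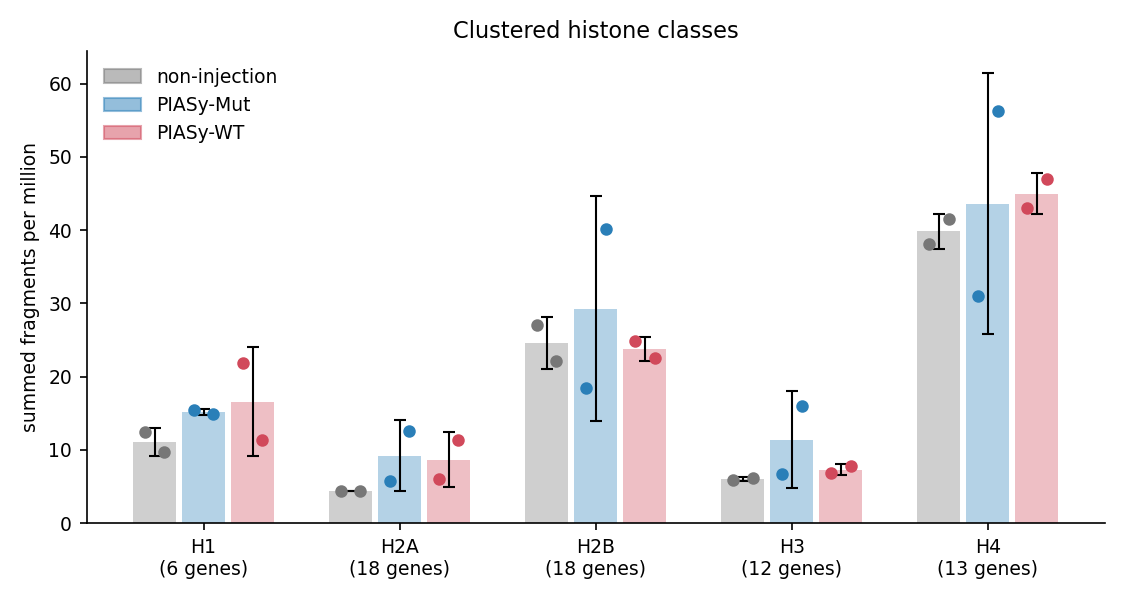
Summed CPM of the H1, H2A, H2B, H3 and H4 genes in the 3 groups (non-injection, PIASy-Mut, PIASy-WT). Points are libraries, bars are means, error bars are the SD (n = 2), and the vertical axis starts at 0. The 2 PIASy-Mut libraries lie farther apart than the group means in H2A, H2B, H3 and H4.

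Across all genes, 16100 passed the filter of at least 1 FPKM in at least 2 libraries and were tested with limma on log2(FPKM + 1). Of the members, 29 passed, 13 of them with no more than 3 fragments in any library. Calls below are those with adjusted P no higher than 0.05. Against non-injection, 1 member was called lower in PIASy-WT, Hist1h4i, where 5.76% of all tested genes were called lower. Another, Hist1h4k, was called higher, where 1.03% of all genes were. Against PIASy-Mut, 1 was called lower, Hist1h3i (6.01% of all genes), and 1 higher, Hist1h4k (0.82% of all genes). Hist1h4k and Hist1h3i passed the filter only through the 2 libraries in which they had any fragment, so they had to differ, and their calls are no support for a difference. Between PIASy-Mut and non-injection limma called 0 members, with 0.00621% of all genes called higher and 0% lower. At an unadjusted P below 0.05 there were 0 members lower (2.09% of all genes) and 2 higher, Hist1h3i and Hist1h2ag (2.37%). Voom on fragments had 0 at that level, but it tested only 4 members and these 2 had too few fragments to be among them. At the same unadjusted level PIASy-WT had 2 members lower (17.6% of all genes) and 2 higher (10.6%) than non-injection embryos, and 4 lower (18.2%) and 3 higher (9.46%) than PIASy-Mut embryos. With a minimum log2 change of 2 in either direction added, the called members were Hist1h4i against non-injection (3.81% of all genes lower, 0.602% higher) and Hist1h3i against PIASy-Mut (4.06% lower, 0.516% higher), the latter with the same limit. A count of 1 member is no result about these genes as a group.

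The median log2 fold change over the tested members was 0 for PIASy-WT against non-injection, against 0.01 over all tested genes. It was −0.16 against PIASy-Mut, with −0.03 over all genes, and 0.14 for PIASy-Mut against non-injection, with 0.04 over all genes. By sign alone, 14 members were on the lower and 14 on the higher side in PIASy-WT relative to non-injection, with 7911 and 8129 of all tested genes. Relative to PIASy-Mut the members split into 20 lower and 9 higher (all genes 8255 and 7773), which became 16 and 13 with quantile or median-of-ratios scaling. For PIASy-Mut relative to non-injection, 10 were lower and 18 higher (all genes 7303 and 8648). With a filter of at least 5 FPKM in 2 libraries only 9 members were left. Of these, 3 were lower and 6 higher in PIASy-WT relative to non-injection, and 4 lower and 5 higher relative to PIASy-Mut. The median over all genes under that filter was −0.11 and −0.14. Of the 29 tested members, libraries of PIASy-WT and non-injection did not overlap for 7 that were lower (31.9% of all tested genes) and 7 that were higher (29.8%). Against PIASy-Mut these numbers were 8 (31%) and 5 (25.5%), and for PIASy-Mut against non-injection they were 1 (10.8%) and 10 (15%). They include Hist1h4k and Hist1h3i, which had to differ, and other members with no more than 3 fragments in any library. Among the 16 members with more than 3 fragments in a library, the numbers were 4 and 5, 4 and 3, and 1 and 5 in the same order.

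**Figure D3:**
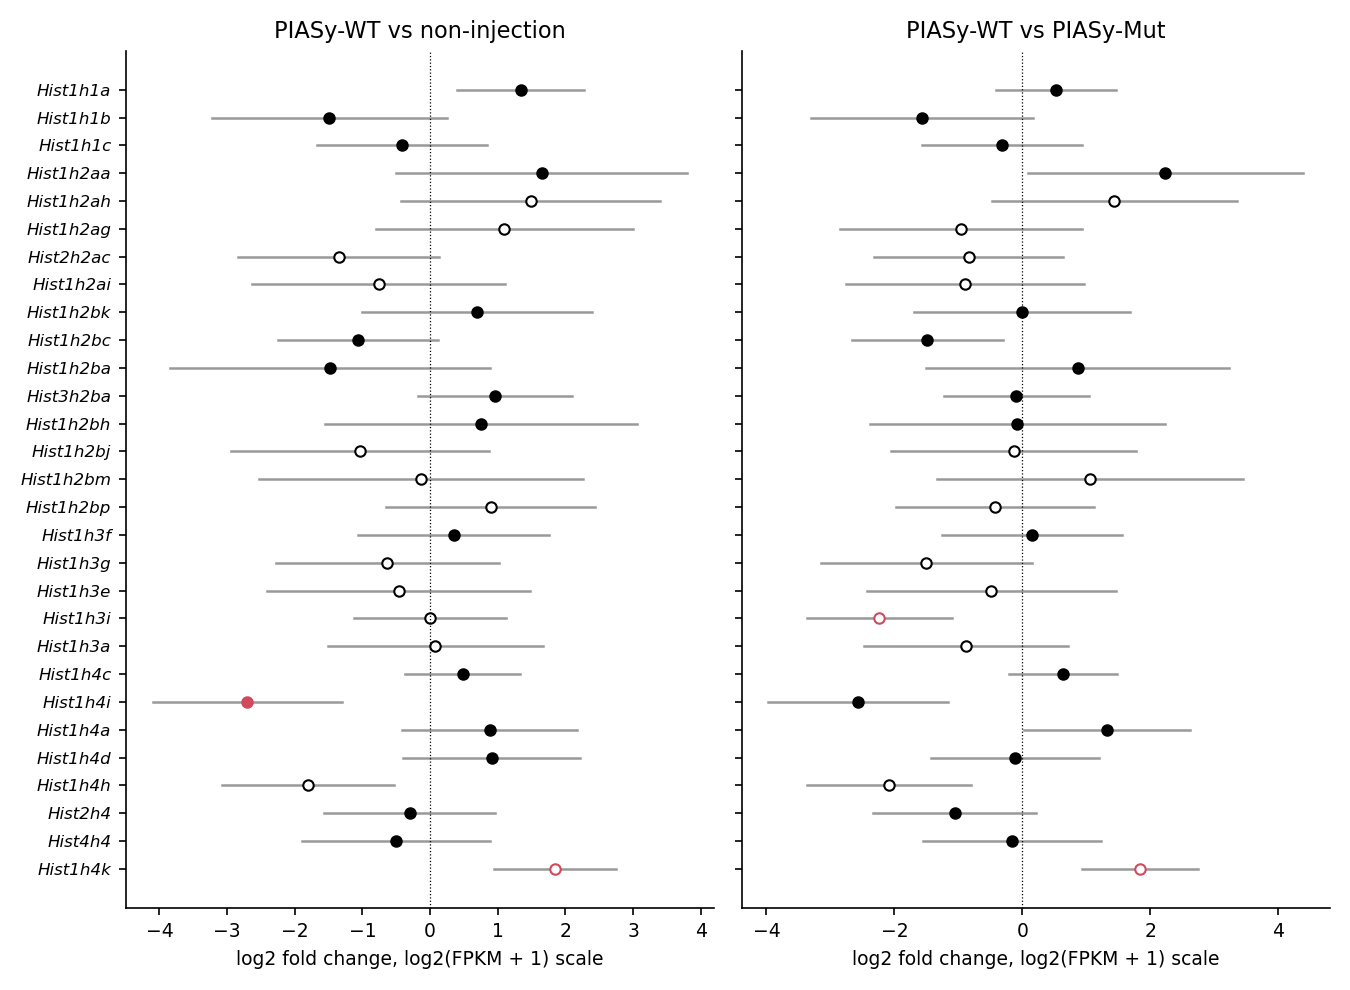
log2 fold changes of the 29 tested members, on the log2(FPKM + 1) scale, with 95% intervals of the limma fit as grey lines, for PIASy-WT against non-injection (left) and against PIASy-Mut (right). Red marks an adjusted P of at most 0.05, and open circles mark genes with no more than 3 fragments in every library. Of the called genes, Hist1h4i alone is above that limit.

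Hist1h4i was the called member with the most fragments. It encodes histone H4 and lies on chr13:22040636-22041362 on the minus strand, as a single model of 727 bases with a 3′ UTR of 376 bases. It was measured at 11.1 and 9.73 FPKM in non-injection embryos, 8.0 and 11.0 with PIASy-Mut, and 2.08 and 0 with PIASy-WT, from 11, 8, 6, 7, 2 and 0 fragments. Both PIASy-WT libraries were lower than the 4 others. On the log2 scale the difference was −2.70 ± 0.58 (SE) from non-injection embryos (limma, adjusted P = 0.048) and −2.57 ± 0.58 against PIASy-Mut (adjusted P = 0.054). On pooled fragments, 2 against 19, the level was 0.106 times that of non-injection, with a 95% interval of 0.0120 to 0.440 for counting error only. Against non-injection embryos its adjusted P lay between 0.0273 and 0.257 over 15 alternatives and was above 0.05 in 13 of them. Without single libraries the log2 fold change stayed between −3.51 and −1.89, with adjusted P from 0.0637 to 0.257. Of these fits, the 4 that left out a non-injection or PIASy-WT library called 0 of the 16100 genes in this comparison, so they say nothing of this gene's call.

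The other well-detected H4 genes were not called. Hist1h4c, with the highest level of all members, was at 20.6 and 24.8 FPKM in non-injection embryos, 15.4 and 26.6 with PIASy-Mut, and 27.6 and 37.1 with PIASy-WT. Both PIASy-WT libraries were above the 4 others, by 0.49 ± 0.35 (log2 scale) over non-injection embryos (limma, adjusted P = 0.41) and 0.64 ± 0.35 against PIASy-Mut (adjusted P = 0.30). Its 95% intervals of −0.36 to 1.34 and −0.21 to 1.49 included 0. On pooled fragments, 65 against 32, the ratio to PIASy-Mut was 1.56 (1.01 to 2.47, counting error only). Hist1h4a was at 4.08 and 6.56, 1.80 and 6.39, and 11.2 and 9.68 FPKM in the same order, again highest in PIASy-WT, with adjusted P = 0.33 and 0.17. Hist1h4d, at 5.80 and 1.55, 6.81 and 8.06, and 8.62 and 5.35 FPKM, overlapped between PIASy-WT and each other group, while both PIASy-Mut libraries lay above both non-injection libraries.

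Other H4 genes are known from a handful of fragments. Hist1h4k, a coding-only model of 312 bases, had 1 fragment in each PIASy-WT library and 0 in the 4 others, so no fold is given. Hist1h4h had 1 and 2, 1 and 2, and 0 and 0 fragments, with adjusted P = 0.0895 and 0.067. The divergent members Hist2h4 (11 fragments over 6 libraries) and Hist4h4 (20 fragments) had models of 1630 and 2863 bases and levels of 0 to 2.82 FPKM. Their libraries overlapped between PIASy-WT and non-injection. For Hist2h4, at 0.926 and 0 FPKM with PIASy-WT and 1.19 and 2.82 with PIASy-Mut, the PIASy-WT libraries lay below those of PIASy-Mut without overlap.

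The start regions of 5 well-detected genes are given to show what the H4 genes with unlike values share and where they differ. They are the 100 bases before the RefSeq gene start (GRCm38.p6), on the gene's strand, with matches on either strand in capitals. The matches are to the TATA box letters TATAAA, to the box known as CCAAT, and to a run found in several H4 genes, GGTCCG.

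Hist1h4i, chr13:22041363-22041462, minus strand: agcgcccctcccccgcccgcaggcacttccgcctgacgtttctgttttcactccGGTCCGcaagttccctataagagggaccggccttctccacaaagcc

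Hist1h4c, chr13:23698459-23698558, minus strand: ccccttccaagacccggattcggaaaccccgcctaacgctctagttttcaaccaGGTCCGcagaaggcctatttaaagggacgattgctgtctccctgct

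Hist1h4d, chr13:23581468-23581567, plus strand: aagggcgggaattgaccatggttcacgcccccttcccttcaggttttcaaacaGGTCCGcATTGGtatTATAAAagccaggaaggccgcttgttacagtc

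Hist1h4a, chr13:23761250-23761349, minus strand: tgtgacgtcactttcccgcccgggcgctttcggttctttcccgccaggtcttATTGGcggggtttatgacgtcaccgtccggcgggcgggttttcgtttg

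Hist1h1a, chr13:23763568-23763667, plus strand: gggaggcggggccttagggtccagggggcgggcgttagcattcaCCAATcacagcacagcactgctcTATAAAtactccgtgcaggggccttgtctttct

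GGTCCG was picked after these sequences were seen, so its count is a description. In the 250 bases before the start it occurred on either strand in 9 of 12 H4 promoters and 6.72% of 32851 RefSeq promoters, and Hist1h4i, Hist1h4c and Hist1h4d had it while Hist1h4a did not. The members matched to a promoter numbered 62. CCAAT occurred in all 6 H1, 18 H2A and 16 H2B promoters, 8 of 10 H3 and 3 of 12 H4 promoters, against 33.8% of all. TATAAA occurred in 12.4% of all promoters and in 6 of 12 H4 promoters. AAACACA was found in 5 of 6 H1 promoters (83.3%) against 6.25% of all. ATTTGCAT, the octamer of H2B genes, occurred in no H4, H3 or H1 promoter, in 38.9% of H2A and 43.8% of H2B promoters, and in 1.60% of all promoters.

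Among the linker histone genes, Hist1h1a, which encodes H1.1, was the highest. It was measured at 6.93 and 5.97 FPKM in non-injection embryos, 10.5 and 13.9 with PIASy-Mut, and 24.4 and 12.9 with PIASy-WT. Both groups of injected embryos lay above non-injection and overlapped each other. The difference was 1.34 ± 0.38 (log2 scale) from non-injection embryos (limma, adjusted P = 0.087) and 0.52 ± 0.38 against PIASy-Mut (adjusted P = 0.43). Its transcript of 741 bases shared no 50-base stretch with another annotated gene. On pooled fragments, 35 against 12, its level in PIASy-WT was 2.94 times that of non-injection, with a 95% counting interval of 1.49 to 6.22.

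The other linker genes were lower. Hist1h1b was at 1.97 and 4.76, 6.52 and 1.54, and 0 and 1.17 FPKM, with both PIASy-WT libraries below the 4 others and adjusted P = 0.23 and 0.22. Hist1h1c, which encodes the somatic H1.2, was at 0.56 to 2.82 FPKM with overlapping groups. Hist1h1d had 3 fragments and Hist1h1e had 1 in 6 libraries.

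Among the H2B genes, Hist1h2bc was at 7.61 and 6.88 FPKM in non-injection embryos, 9.22 and 10.9 with PIASy-Mut, and 5.22 and 1.51 with PIASy-WT, so both PIASy-WT libraries were lowest. On the log2 scale it differed by −1.06 ± 0.49 from non-injection embryos (limma, adjusted P = 0.21) and −1.48 ± 0.49 against PIASy-Mut (adjusted P = 0.11). Without single libraries these values ran from −1.72 to −0.41 and from −2.14 to −0.83, and were smallest without PIASy-WT library 2. Hist1h2bk, the H2B gene of highest mean FPKM, whose transcript ends soon after the stem-loop and shares 74.2% of its stretches, was at 3.08 and 9.29, 6.11 and 14.5, and 15.9 and 5.48 FPKM, and its groups overlapped.

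Hist1h2ba and Hist1h2aa encode the testis variants TH2B and TH2A, which are also known from oocytes and zygotes. Hist1h2ba was at 9.55 and 16.1 FPKM in non-injection embryos, 0 and 5.98 with PIASy-Mut, and 1.96 and 6.80 with PIASy-WT. Both injected groups were below non-injection (adjusted P = 0.36 for PIASy-WT). Hist1h2aa was at 3.76 and 2.27, 0 and 5.88, and 9.67 and 13.4 FPKM, with both PIASy-WT libraries above the 4 others. On the log2 scale it differed by 1.65 ± 0.88 from non-injection embryos (limma, adjusted P = 0.27) and 2.24 ± 0.88 against PIASy-Mut (adjusted P = 0.17). Without single libraries the latter value ran from 0.85 to 3.63, the highest without PIASy-Mut library 2 and the lowest without PIASy-Mut library 1. Both models are coding sequence only and rest on 18 and 16 fragments in all. Hist3h2ba, at 2.39 and 1.44, 3.16 and 7.47, and 4.92 and 4.25 FPKM, lay above non-injection in both injected groups, on 16 fragments.

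The H3 genes and the other H2A genes were low. Hist1h3f, the highest H3 gene, was at 1.38 to 5.38 FPKM with overlapping groups. Hist1h3g and Hist1h3e had 7 and 10 fragments in all. Hist1h3i, called lower in PIASy-WT than in PIASy-Mut, had 1 and 2 fragments in PIASy-Mut and 0 in the 4 other libraries, and no fold is given. Of the H2A genes, Hist1h2ah, Hist1h2ag and Hist2h2ac had 6, 5 and 3 fragments in all, and 92.1%, 78.9% and 55.0% of their stretches were shared. The H2B gene Hist1h2bh had 10 and 0, 2 and 10, and 6 and 6 fragments, so libraries of 1 group differed by up to 10 fragments and the groups overlapped.

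**Figure D4:**
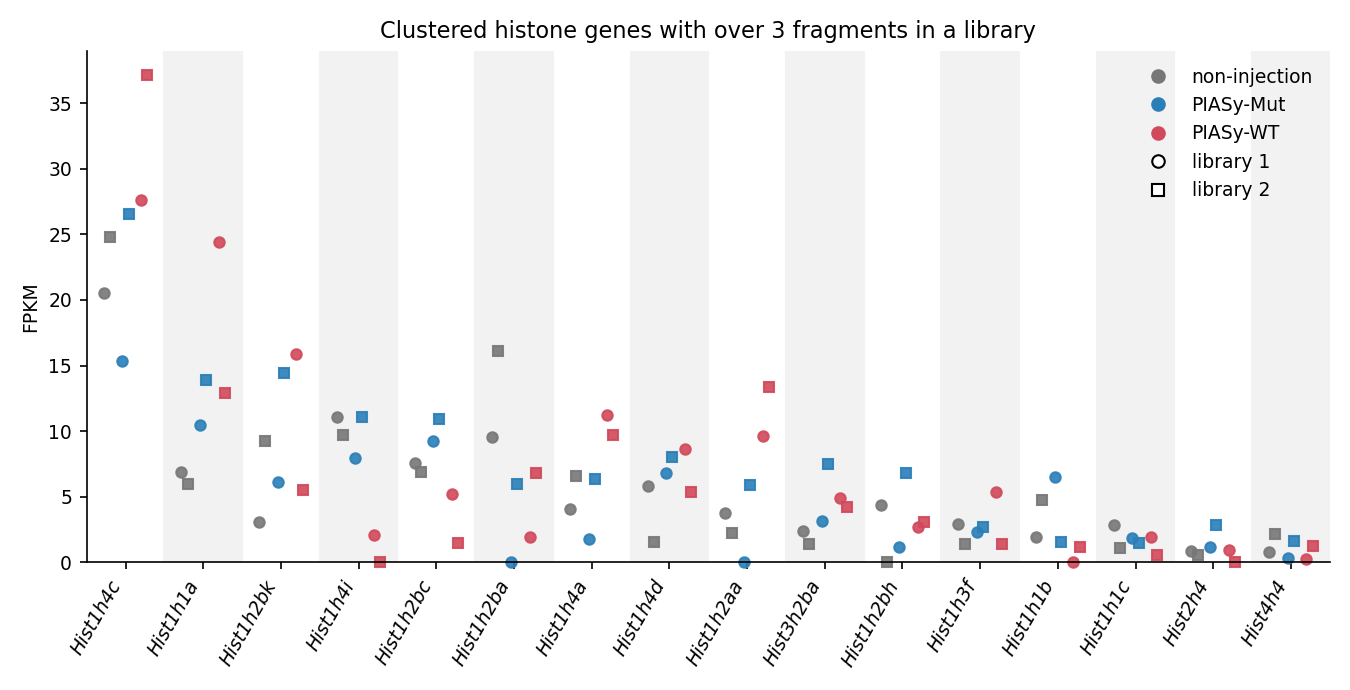
FPKM in each library of the 16 clustered histone genes with more than 3 fragments in at least 1 library, ordered by mean FPKM. Colours are groups, circles and squares are libraries 1 and 2, and the vertical axis starts at 0. Hist1h4i lies at 2.08 and 0 FPKM in PIASy-WT, and Hist1h4c at 27.6 and 37.1.

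Some replication-independent histone genes, whose mRNAs carry poly(A) tails, were measured at far higher levels in the same libraries, while 7 of the 16 protein-coding genes on the list averaged less than 1 FPKM. H3f3b, which encodes H3.3, was at 765 and 679 FPKM in non-injection embryos, 545 and 535 with PIASy-Mut, and 903 and 699 with PIASy-WT. That is 3.04 to 7.24 times the sum of FPKM over all 67 clustered genes in the same library. The oocyte linker gene H1foo alone, at 64.5 to 126 FPKM, reached 0.527 to 1.16 times that sum. Libraries of PIASy-WT and non-injection overlapped for both genes, and their log2 fold changes were 0.14 ± 0.25 (limma, adjusted P = 0.75) and −0.12 ± 0.33 (adjusted P = 0.84), with signs that turned under another scaling for H1foo and without single libraries for both. Against PIASy-Mut, H3f3b was higher in PIASy-WT without overlap (0.56 ± 0.25, limma, adjusted P = 0.21). The other H3.3 gene, H3f3a, was at 46.9 and 50.5, 64.4 and 42.9, and 32.3 and 34.8 FPKM, lowest in both PIASy-WT libraries (adjusted P = 0.27 and 0.20).

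Of these 16 genes 10 were tested, and 3 of them fell in PIASy-WT against each of the other groups while 0 rose, where 5.76% and 6.01% of all tested genes fell and 1.03% and 0.82% rose. Cenpa, the centromeric H3 variant, was at 72.3 and 77.6 FPKM in non-injection embryos, 102 and 60.5 with PIASy-Mut, and 15.6 and 15.9 with PIASy-WT, a log2 fold change of −2.18 ± 0.31 (limma, adjusted P = 0.029) and −2.25 ± 0.31 (adjusted P = 0.024). H2afv, which encodes an H2A.Z protein, fell, with log2 fold changes of −1.85 and −1.73 (limma, adjusted P = 0.033 and 0.035). H2afj, which encodes H2A.J, fell as well, with −2.29 and −1.97 (limma, adjusted P = 0.034 and 0.044). H2afz, the other H2A.Z gene, was at 311 and 291, 414 and 218, and 124 and 101 FPKM, with a log2 fold change of −1.42 ± 0.35 in both comparisons and adjusted P = 0.065 and 0.064. Each of these 4 genes had PIASy-WT libraries below all 4 others. Without single libraries the log2 fold changes against non-injection stayed between −2.23 and −2.13 for Cenpa, −2.10 and −1.61 for H2afv, and −2.77 and −1.81 for H2afj. Against PIASy-Mut they stayed between −2.62 and −1.88, −2.04 and −1.41, and −2.45 and −1.50. Each of these 3 genes lost its calls in some alternatives, among them fits that called 0 genes in total. H2afj was not called against PIASy-Mut in any fit without a single library. The median log2 fold change over the 10 genes was −0.48 and −0.90, beside 0.01 and −0.03 over all tested genes.

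**Figure D5:**
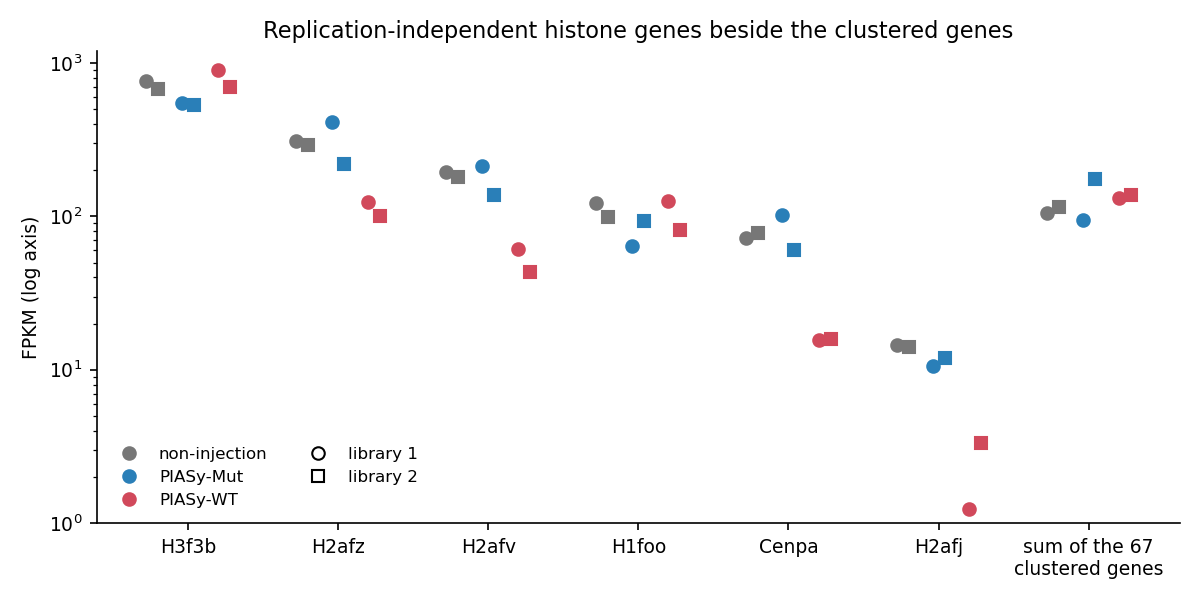
FPKM on a log axis of 6 replication-independent histone genes in each library, with the summed FPKM of the 67 clustered genes at the right. Colours are groups, and circles and squares are libraries 1 and 2. H2afz, H2afv, Cenpa and H2afj lie lower in PIASy-WT than in the 4 other libraries, and the sum of clustered genes does not.

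Genes listed for the transcription and 3′ processing of histone mRNA were also examined, some of which, such as Znhit3, have other roles. Of 29 such genes 26 were tested, and 3 fell in PIASy-WT against each other group while 0 rose, beside the same shares of all genes. Their median log2 fold change was −0.49 and −0.17, with 10 and 12 of the 26 on the higher side. They were Ccne1 (cyclin E1, the partner of CDK2), Coil (coilin, of Cajal bodies) and Znhit3 (a factor of small nucleolar RNP assembly), and none of them binds or cuts histone mRNA itself. Coil was at 12.1 and 20.1 FPKM in non-injection embryos, 25.9 and 13.7 with PIASy-Mut, and 1.71 and 1.24 with PIASy-WT, a log2 fold change of −2.75 ± 0.43 (limma, adjusted P = 0.031) and −3.01 ± 0.43 (adjusted P = 0.026). The log2 fold changes were −2.44 and −3.01 for Znhit3 (limma, adjusted P = 0.032 and 0.024), and −1.44 and −1.58 for Ccne1 (adjusted P = 0.049 and 0.041). Without single libraries the log2 fold changes against non-injection stayed between −3.10 and −2.41 for Coil, −2.83 and −2.05 for Znhit3, and −1.55 and −1.33 for Ccne1. Against PIASy-Mut they stayed between −3.45 and −2.58, −3.40 and −2.62, and −1.94 and −1.22. Each of the 3 lost its calls in some alternatives, among them fits that called 0 genes in total.

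Of the 4 genes of highest mean FPKM on this list, Slbp, Lsm10 and Casp8ap2 were not called. Slbp, which binds the stem-loop, was at 135 and 123 FPKM in non-injection embryos, 81.8 and 93.8 with PIASy-Mut, and 101 and 96.9 with PIASy-WT, with adjusted P = 0.32 and 0.65. Lsm10, a part of the U7 particle, was at 88.6 and 119, 109 and 148, and 157 and 176 FPKM, highest in both PIASy-WT libraries, with adjusted P = 0.17 and 0.42. Casp8ap2, which encodes FLASH of the histone locus body, was at 103 and 108, 101 and 89.1, and 129 and 130 FPKM (adjusted P = 0.42 and 0.25). Snrpb and Cstf3, picked after their values were seen, lay lower in both PIASy-WT libraries than in the 4 others. Snrpb was at 43.4 and 71.6, 62.3 and 40.1, and 20.6 and 11.0 FPKM (limma, adjusted P = 0.059 and 0.070), and Cstf3 at 9.23 and 8.72, 15.8 and 7.81, and 2.31 and 2.81 FPKM (adjusted P = 0.078 and 0.055).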

How the data were processed

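Trim Galore removed low-quality bases (minimum Q20), STAR placed the 50- and 25-base read pairs on mm10, and featureCounts tallied those with 1 position, all by the authors (versions and annotation not given in the sources used here). The authors deposited FPKM for 53023 genes in 6 libraries. Multiplied by gene length, these FPKM gave whole fragments for 100% of values (within 0.01), from which depth and CPM were taken. Spike-ins were added but the table held 0 spike-in entries, so values are shares of a library. The main test was limma 3.58.1 under R 4.3.3 (lmFit, eBayes with trend, all 6 libraries, no block) on log2(FPKM + 1) over 16100 genes with at least 1 FPKM in at least 2 libraries, with Benjamini-Hochberg adjustment. The pseudocount understates changes of low genes. Residual degrees of freedom were 3 and prior ones 3.12, and the fit was checked on simulated data. The DESeq2 test of the authors was not run. The count-based alternative was voom on the recovered fragments.

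Named genes were the 4 highest members of each class, all called members and 7 germ-line or divergent ones, while Hist2h4, Hist1h2bh, Hist1h4h, Hist1h1d, H3f3a, Snrpb and Cstf3 were added after their values were seen. A processed pseudogene on the list of replication-independent genes, H3f3c, was left out of its counts. Members, lists and tests were chosen with earlier results of these data known. The study defines n as biological replicates, and each group had 2 libraries of pooled embryos, so P-values measure the spread between such pools. Stem-loops, shared 50-base stretches and overlaps came from GENCODE M21, in which all 67 members had the same identifiers and positions. Promoters came from RefSeq. Bases beyond annotated ends and proteins were not analysed here. Ratios of fragments have exact conditional binomial 95% intervals. Scripts used scipy 1.17.1, pandas 2.3.3, numpy 2.4.6 and, for plots, matplotlib 3.10.9, under Python 3.11.15.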

Additional observations from a re-analysis of the deposited data

How the results depend on the processing

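Of 16 alternatives, each was run on the 3 comparisons. The count of members called lower with PIASy-WT than without injection was 0 in place of 1 without a filter, with quantile or median-of-ratios scaling, with eBayes without trend, with only the groups compared, with the replicate block, and with voom on recovered fragments, and 0 to 0 without single libraries. The count called higher was 0 in place of 1 with pseudocount 0.1, without a filter, with the replicate block and with voom, and 0 to 1 without single libraries. Against PIASy-Mut, the count called lower was 0 without a filter, with either scaling, without trend, with only the groups compared, with the replicate block and with voom, and 0 to 1 without single libraries. The count called higher was 0 with pseudocount 0.1, without a filter, with at least 5 FPKM, with only the groups compared, with the replicate block and with voom, and 0 to 3 without single libraries, 3 being without PIASy-Mut replicate 2. In that last fit 1 library stands for PIASy-Mut, assumed to vary like the other groups, and calls over all genes rose from 132 to 865. Without a single non-injection or PIASy-WT library, 0 of 16100 genes were called in either PIASy-WT comparison. Against PIASy-Mut the same held with only the groups compared and without PIASy-Mut replicate 1. The calls lost in those fits say nothing of these members. Voom tested only 4 members. For the other losses the cause was not tested.

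The median over members moved to 0.69 for PIASy-WT over non-injection and 0.52 over PIASy-Mut with at least 5 FPKM, and to 0.92 for the former with voom, on 4 members. The share of genes with a stem-loop was 49.3% in place of 65.7% with the arm GGCTCT only, which leaves out H4. The median share of stretches found elsewhere was 42.4% with 75 bases. Same-numbered libraries had deviations that correlated at 0.004, 0.085 and 0.064, so numbers were not taken to pair libraries, and the replicate block ended every member call of PIASy-WT.

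For 36 named or better-detected genes, 896 values kept direction and side of the threshold, 139 fell out of it, 13 came into it and 38 turned in sign. Given as ranges without single libraries, those that turned against non-injection were Hist1h1c (−0.87 to 0.0397), Hist1h2bh (−0.46 to 1.96), Hist1h3e (−1.48 to 0.56), Hist1h3f (−0.36 to 1.06), Hist1h3g (−1.33 to 0.0669), Hist2h4 (−0.78 to 0.17), H1foo (−0.43 to 0.19, and 0.14 with quantile scaling) and H3f3b (−0.0452 to 0.32). Against PIASy-Mut they were Hist1h1c (−0.77 to 0.14), Hist1h2ag (−2.05 to 0.15), Hist1h2ba (−0.54 to 2.27), Hist1h2bh (−1.01 to 0.86), Hist1h2bk (−0.69 to 0.68), Hist1h3e (−1.51 to 0.54), Hist1h3f (−0.56 to 0.86), Hist1h4d (−0.41 to 0.19), Hist3h2ba (−0.60 to 0.42) and Hist4h4 (−0.64 to 0.32). Against PIASy-Mut, quantile and median-of-ratios scaling also turned Hist1h2bh (0.00841 and 0.0211), Hist1h2bk (0.24 and 0.12), Hist1h4d (0.14 and 0.0102) and Hist3h2ba (0.0805 and 0.0190). Pseudocount 0.1 and voom turned Hist1h2bh (0.0228 and 0.0594), and pseudocount 5 turned Hist1h2bk (0.00813). A count of 3 fragments or fewer in every library limits 51 of the 67 genes. Searching past annotated transcript ends and comparing proteins were not run.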

Other observations

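Hist1h2al, annotated as a processed pseudogene on chr13:51202727-51203065 and so no member, had 2 and 4 fragments in non-injection embryos, 3 and 10 with PIASy-Mut, and 13 and 4 with PIASy-WT, while the most that a clustered protein-coding H2A gene had in a library was 6. Its PIASy-WT and non-injection libraries overlapped once scaled to depth. The pseudogene Hist1h2aj had 4 fragments in all and Hist3h2bb-ps had 0.

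The 7 oocyte-deposited genes summed to 4245 and 3808 CPM in non-injection embryos, 3946 and 6174 with PIASy-Mut, and 7766 and 7499 with PIASy-WT, and the 8 markers of the 2-cell embryo to 2087 and 2006, 2282 and 2263, and 1327 and 948 CPM. These sums differ between PIASy-WT and non-injection more than those of the clustered histone genes do, and their part in the histone values was not tested. The 7 oocyte-deposited genes did not all go 1 way. In PIASy-WT, 6 were higher and 1 lower than in non-injection embryos, and 4 higher and 3 lower than with PIASy-Mut. The only 1 called, Zp3, was lower in both comparisons (limma, adjusted P = 0.029 and 0.024), where 5.76% and 6.01% of all tested genes were called lower.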
